A study of Mus musculus with 6 samples.

Results

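Retinoic acid is made, bound, read and destroyed by small gene families, and 10 of those genes were followed here in rib cage RNA of mouse embryos. They were Aldh1a1, Aldh1a2 and Aldh1a3 for synthesis, Cyp26a1 and Cyp26b1 for breakdown, Crabp1 and Crabp2 for binding in the cytoplasm, and Rara, Rarb and Rarg for reception in the nucleus. The genes were chosen as members of the pathway and matched by symbol to the gene IDs of the count table. No measured value entered the rule, but it was set with earlier results of these data known. All 10 were found among its 55487 genes, and all 10 were among the 26596 genes with enough counts to be tested.

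RNA-Seq was run on rib cages of 6 embryos at 16.5 dpc (days post coitum), 3 in each group, to ask how loss of the forkhead transcription factors Foxc1 and Foxc2 in cartilage progenitors alters gene expression. The control embryos E420, E434 and E435 carry the label wild type, and in the study's crosses controls were littermates without the Col2-cre transgene. The labels do not say which floxed alleles these controls carried. The mutant embryos E423, E433 and E440 were Col2-cre;Foxc1-/-;Foxc2-/-, with floxed alleles deleted where the Col2-cre recombinase is active, that is in chondrocyte progenitors and their descendants. In the study's reporter embryos, Cre activity in the hind limb also covered the perichondrium and the primary ossification center. Cells in which the recombinase is not active keep both genes, and their share of the rib cage is not given. RNA of the whole dissected tissue was sequenced. Each embryo gave 1 library. Litters are not given, so which embryos were siblings is unknown.

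In the pathway, alcohol and retinol dehydrogenases turn retinol (vitamin A) into retinaldehyde, and the Aldh1a enzymes oxidize retinaldehyde to retinoic acid. Retinoic acid binds nuclear receptors of the RAR family, which pair with RXR partners on DNA at repeats of a short hexamer, while Cyp26 enzymes hydroxylate it for removal. In the skeleton, signaling through the RARs holds back the differentiation of chondrocytes, excess retinoic acid malforms limbs and ribs, and Cyp26b1 keeps the acid low in the limb bud.

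Cyp26a1 and Rarb are classical targets of the receptors themselves, and the sequence at their start sites is shown for that reason. The window from 250 bases before to 50 bases after each annotated start (RefSeq, GRCm38.p6) was searched on both strands for a pair of hexamers in direct repeat. A hexamer could be AGTTCA (found in both genes below) or AGGTCA (the consensus form), and could also be GGTTCA (found in Rarb below) or GGGTCA. A window was at hand for 8 of the 10 members, all but Aldh1a3 and Crabp2. With 5 bases between the hexamers, the spacing NNNNN bound by RAR and RXR pairs, 2 of these 8 genes had a match, Rarb and Cyp26a1, beside 0.115% of the 27025 genes with a window. With 2 bases or 1 base between them, 0 of the 8 had a match, beside 0.311% and 0.263% of genes. Of 37 other genes of the pathway with a window, 0 had the 5-base spacing. These shares are no test, because Rarb and Cyp26a1 were known targets and the hexamers allowed include the forms found in them. The 140 bases of the plus strand just before the start of Cyp26a1 in the gene annotation of the count table (chr19:37697658-37697797) are shown because they hold the match, in capitals, on the opposite strand. For Rarb the match with 6 bases on each side is shown from the minus strand (chr14:16575507-16575535), which lies before the RefSeq start and inside an annotated exon of longer GENCODE transcripts.
Cyp26a1: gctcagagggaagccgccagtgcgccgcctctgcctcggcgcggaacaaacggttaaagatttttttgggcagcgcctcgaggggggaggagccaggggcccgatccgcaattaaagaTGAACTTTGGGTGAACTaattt
Rarb: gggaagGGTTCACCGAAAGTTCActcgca

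Read in the orientation of the hexamers, the 2 repeats are set out again with the hexamers in capitals and the spacer in lower case. The Cyp26a1 repeat lies on the minus strand (chr19:37697776-37697792) and the Rarb repeat on the minus strand as well (chr14:16575513-16575529).
Cyp26a1: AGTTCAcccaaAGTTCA
Rarb: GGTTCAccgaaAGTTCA
Counted from 1 at the 5′ end, they differ at 2 of 17 bases, A1G in the first hexamer and C9G in the spacer, with the Cyp26a1 base given first. The match is a description of the letters and no measurement of binding. The receptor gene with the repeat, Rarb, was near equal in the groups (3.80 against 3.70 CPM, counts-per-million), whereas the enzyme gene with the repeat, Cyp26a1, was the member with the largest fold difference (3.63 against 1.65 CPM).

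Before the comparison, the libraries need a description. Counts ran from 37853988 to 47794799 per library, so that 1 count was worth 0.0206 to 0.0254 CPM. Foxc1 was at 23.1 to 36.9 CPM in controls and 3.51 to 9.61 CPM in mutants, and Foxc2 at 1.99 to 4.83 and 0.649 to 1.14 CPM, so the 6 libraries follow their labels. All 10 chondrocyte markers had counts in every library, but their summed level ran from 527 to 23691 CPM and stood far higher in control E434 (23691 CPM) and mutant E433 (8701 CPM) than in the other 4 (527 to 1683 CPM). Keratinocyte genes ran the other way, from 18.2 CPM in E434 and 3209 CPM in E433 to 27532 and 27668 CPM in mutants E423 and E440, although the rib cages had been cleaned before freezing. Controls E420 and E435 resembled each other closely (SD of the log2 ratio over genes 0.156), as did mutants E423 and E440 (0.135), while the other 13 pairs differed by 0.493 to 1.58. Both close pairs still differed by more than counting noise (chi-square per gene 5.05 and 2.19), and each library was treated as a sample of its own.

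Across the 10 members, 0 reached both an adjusted p below 0.1 and a log2 fold change as large as 1 in edgeR's quasi-likelihood test, beside 17 of all genes tested (0.0639%). DESeq2 also called 0 of the 10, beside 1.79% of all genes. At an unadjusted p-value under 0.05, edgeR had 2 of the 10, Aldh1a3 and Cyp26a1, both lower in mutants, beside 10.6% of all genes in either direction and 4.7% for lower values. The same 2 genes had 3 mutant libraries below all 3 controls, beside 8.21% of all genes for that direction and 15% for either direction. A share of 2 in 10 lies above these backgrounds, but 2 genes are too few to read as a trait of the members. With 3 embryos per group, an exact 2-sided permutation of a single value cannot give a p below 0.1. The median log2 fold change of the 10 members was −0.06, and that of all genes tested was 0.01. RNA of the whole rib cage was measured, so fewer cells of a type and less RNA per cell cannot be told apart in any value below.

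**Figure D1:**
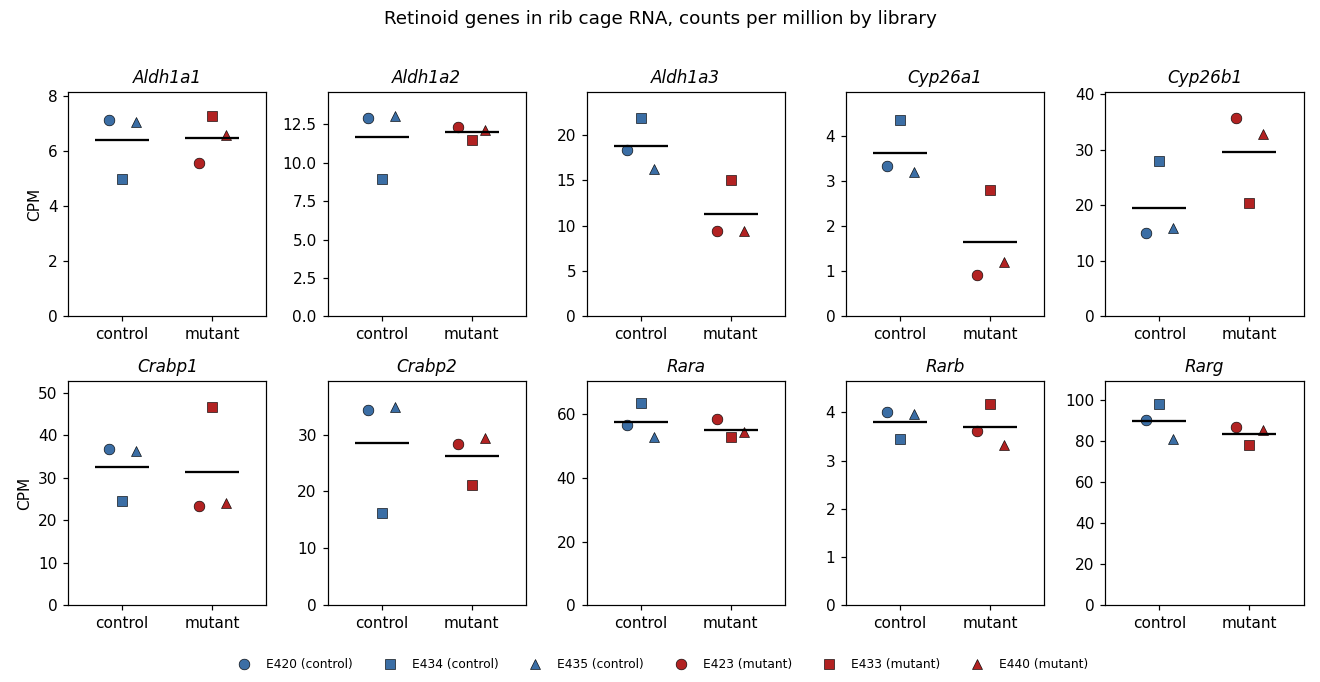
Level of each of the 10 retinoid genes in counts-per-million (CPM, vertical axes, each from 0) in the 3 control and 3 mutant libraries, with the group mean as a bar and each embryo by its own symbol. In the panels of Aldh1a3 and Cyp26a1 the mutant points lie below every control point, and in the other 8 panels the groups overlap.

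Among the synthesis genes, Aldh1a3 was lower in the mutants. Aldh1a3 (ENSMUSG00000015134.15, GRCm38 chromosome 7, 66390890 to 66427517, minus strand), the retinaldehyde dehydrogenase best known from the eye and the nasal region, was at 18.4 CPM in control E420, 21.8 in E434 and 16.3 in E435, and at 9.38 CPM in mutant E423, 15.04 in E433 and 9.36 in E440. The groups did not overlap, but E433 lay only a little below the lowest control. The mean was 18.8 ± 2.81 CPM (SD, n = 3) in controls and 11.3 ± 3.27 CPM in mutants, a log2 fold change of −0.74 ± 0.22 (SE, 95% interval −1.28 to −0.20), with an adjusted p of 0.392 by edgeR over all genes. DESeq2 gave −0.73 and an adjusted p of 0.0596, which passed the limit on p but not that on the fold.

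The value of Aldh1a3 turned on mutant E433. Without this library, edgeR gave a log2 fold change of −1.002 and an adjusted p of 0.0262, past both limits, in a fit that called 4.21% of all genes. The mutants left, E423 and E440, are a close pair, so the mutant spread in that fit is only theirs. In the 4 libraries low in chondrocyte genes, E420 and E435 against E423 and E440, the log2 fold change of Aldh1a3 was −0.88, short of the fold limit. In the pair rich in chondrocyte genes, control E434 had 21.8 CPM and mutant E433 15.04 CPM, a difference of the same sign from 1 library each. Cell content was not matched between the groups in either kind of library. Summed chondrocyte levels were 1683 and 1585 CPM in E420 and E435 against 557 and 527 CPM in E423 and E440, and 23691 CPM in E434 against 8701 CPM in E433. The osteoblast list, all 10 of its markers being found in every library, also kept the groups apart. Its summed levels were 11520 to 16640 CPM in controls and 7995 to 8387 CPM in mutants, and most of the sum was Col1a1 (10649 of 12302 CPM in E420). Within the mutants, the markers of this list other than Runx2 and Col1a1 were lowest in E433, where Aldh1a3 was highest. The part of osteoblast content in the Aldh1a3 value was not tested.

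The other synthesis genes showed no difference of that size. Aldh1a2 (ENSMUSG00000013584.5, chromosome 9, 71215789 to 71296243), the main retinoic acid maker of early embryonic mesoderm, was at 12.9, 8.96 and 13.0 CPM in E420, E434 and E435, and at 12.3, 11.5 and 12.2 CPM in E423, E433 and E440. The log2 fold change came to 0.04 ± 0.17 (SE, 95% interval −0.36 to 0.44), with an adjusted p of 0.945 by edgeR. The groups overlapped, and E434 was the lowest library. Aldh1a1 (ENSMUSG00000053279.8, chromosome 19, 20492715 to 20643465), an enzyme of the same family, was at 7.15, 5.01 and 7.05 CPM in controls and at 5.56, 7.29 and 6.59 CPM in mutants. Its log2 fold change was 0.02 ± 0.19 (95% interval −0.44 to 0.47, adjusted p by edgeR 0.987). The intervals of both genes leave out a change of 2-fold either way, since both end within 0.47 of 0 on the log2 scale.

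Levels of different genes were compared per length, in transcripts-per-million (TPM) from RSEM. In controls, Aldh1a3 was the most abundant of the Aldh1a transcripts on average, at 9.72 ± 1.71 TPM (SD, n = 3), beside 7.16 ± 1.37 for Aldh1a2 and 4.83 ± 0.677 for Aldh1a1. In mutants Aldh1a2 stood first on average, at 7.19 ± 0.296 TPM, beside 5.42 ± 1.78 for Aldh1a3 and 4.74 ± 0.780 for Aldh1a1. Aldh1a3 made up 41.2%, 54.4% and 39.0% of the summed TPM of the 3 genes in E420, E434 and E435, and 27.2%, 36.2% and 28.7% in E423, E433 and E440. The 3 mutant shares lay below all control shares. The summed synthesis level was 22.8, 21.3 and 21.04 TPM in controls and 15.8, 20.6 and 15.7 TPM in mutants, and here too E433 lay just under the lowest control. A sum is no independent evidence beside Aldh1a3, which carried the difference.

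The enzymes of breakdown did not move together. Cyp26a1 (ENSMUSG00000024987.6, chromosome 19, 37697798 to 37701536, plus strand), the retinoic acid hydroxylase that cells switch on when they sense the acid, had 131, 197 and 155 counts in E420, E434 and E435 and 38, 121 and 56 counts in E423, E433 and E440. Scaled to library size, these were 3.33, 4.35 and 3.20 CPM in controls and 0.914, 2.81 and 1.21 CPM in mutants. All 3 mutants lay below all 3 controls, with E433 again closest to them. The log2 fold change was −1.14 ± 0.42 (SE, 95% interval −2.16 to −0.12), a fold of 0.454, and the adjusted p was 0.438 by edgeR and 0.137 by DESeq2.

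Leaving out E433 brought Cyp26a1 to −1.76 with an adjusted p of 0.0211 by edgeR, past both limits, in a fit that called 4.21% of all genes. The mutants left, E423 and E440, are a close pair, so the mutant spread there is only theirs. In the 4 libraries low in chondrocyte genes, Cyp26a1 was at −1.60 with an adjusted p of 4.87e-06 by edgeR, in a fit that called 8.25% of all genes. That fit takes its spread from 2 pairs of close libraries, so its p-values measure only how alike those pairs are. With E420 summed with E435 and E423 summed with E440, which counts each close pair once, Cyp26a1 stood at −0.98 with an unadjusted p of 0.130 by edgeR. In the pair rich in chondrocyte genes the values were 4.35 CPM in E434 and 2.81 CPM in E433. The summed osteoblast list also kept the groups apart, at 11520 to 16640 CPM in controls against 7995 to 8387 CPM in mutants. Within the mutants, its markers other than Runx2 and Col1a1 were lowest in E433, where Cyp26a1 was highest. Spp1, for example, was at 119, 27.3 and 124 CPM in E423, E433 and E440. The part of osteoblast content in the Cyp26a1 value was not tested.

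Cyp26b1 (ENSMUSG00000063415.12, chromosome 6, 84571414 to 84593908, minus strand), the hydroxylase that guards the limb bud and skeletal precursors, was at 14.9, 27.9 and 15.9 CPM in E420, E434 and E435 and at 35.6, 20.4 and 32.8 CPM in E423, E433 and E440. The groups overlapped, since control E434 exceeded mutant E433. Its log2 fold change was 0.60 ± 0.31 (SE, 95% interval −0.14 to 1.34), with an adjusted p of 0.538 by edgeR and 0.373 by DESeq2. In the 4 libraries low in chondrocyte genes it was 1.15 (adjusted p by edgeR 1.17e-10), where both mutants exceeded both controls by more than 2-fold. That fit called 8.25% of all genes. Its p-values measure only how alike the close pairs E420 with E435 and E423 with E440 are. With each of these pairs summed, Cyp26b1 stood at 0.33 with an unadjusted p of 0.458 by edgeR. In the remaining pair the mutant E433 was the lower.

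The level of Cyp26b1 had the same order over the 6 libraries as the summed level of a skeletal muscle list. The list, all 8 of its markers being found in every library, summed to 10569, 17896 and 10782 CPM in E420, E434 and E435 and to 23293, 13894 and 22612 CPM in E423, E433 and E440, with E423 highest and E420 lowest for both. Contractile genes carried the sum, with Acta1, the actin of skeletal muscle, at 4368 to 7072 CPM in controls and 5264 to 10469 CPM in mutants. The regulators of muscle formation on the list did not share this order, since Myod1 was at 71.2, 75.5 and 73.3 CPM in controls and lower in every mutant, at 52.8, 68.7 and 50.9 CPM, and Myog was lowest in E423 and E440 (242 and 239 CPM). Per 1000 CPM of the muscle list, Cyp26b1 stood at 1.41, 1.56 and 1.47 CPM in controls and at 1.53, 1.47 and 1.45 CPM in mutants. The highest of these 6 ratios exceeded the lowest by 1.104-fold, against 2.39-fold for Cyp26b1 itself, and the group means were 1.48 ± 0.0738 and 1.48 ± 0.0414 (SD, n = 3). A covariate for the mean log2 level of the muscle list was added because these values had been seen, so it is no independent evidence. With it, the log2 fold change of Cyp26b1 was −0.03 ± 0.13 (SE) with an adjusted p of 0.971 by edgeR, and the part of muscle content in the Cyp26b1 value was not tested. In the same edgeR fit Cyp26a1 was at −0.99 ± 0.51 (unadjusted p 0.104) and Aldh1a3 at −0.70 ± 0.29 (unadjusted p 0.0567), both still lower in mutants but no longer under 0.05. The planned covariates gave other values by edgeR. With the chondrocyte list, Cyp26a1 was at −0.91 ± 0.25 (unadjusted p 0.00933) and Aldh1a3 at −0.57 ± 0.11 (unadjusted p 0.00141, adjusted p 0.0899). With the keratinocyte list they were at −0.73 ± 0.37 (unadjusted p 0.0944) and −0.47 ± 0.18 (unadjusted p 0.0367).

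Of the 13941 other coding genes at 1 CPM or more, those with the pattern most similar to that of Cyp26b1 over the 6 libraries were Mybpc1, a myosin-binding protein of slow muscle, Igsf1, and Ampd1, the AMP deaminase of skeletal muscle. The root mean square difference from Cyp26b1 in centered log2 CPM was 0.0492, 0.050 and 0.0513 for these genes, against a spread of Cyp26b1 between libraries of 0.535 (SD).

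**Figure D2:**
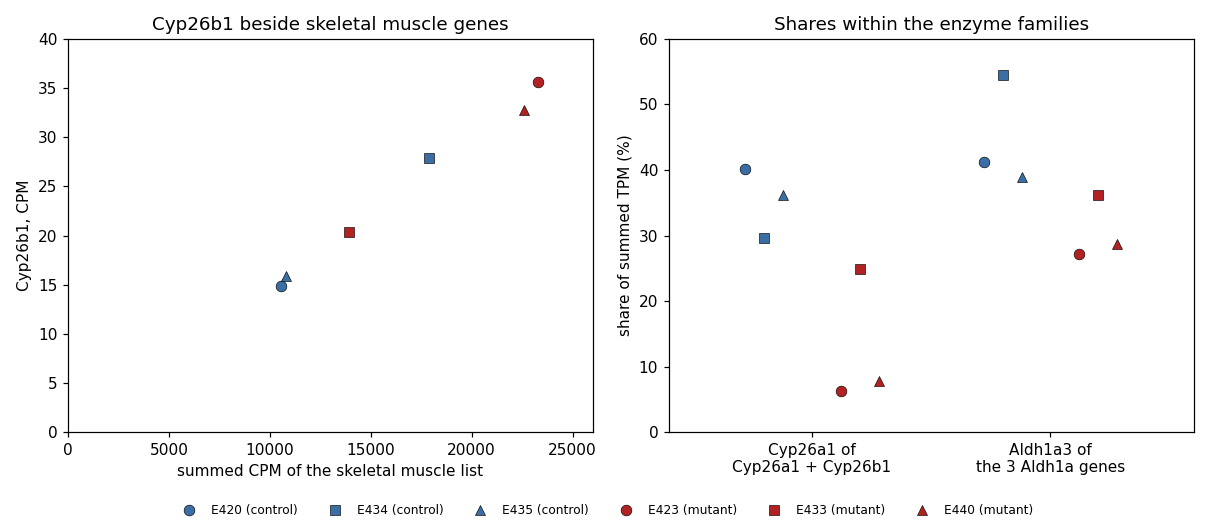
Left, Cyp26b1 in CPM against the summed CPM of 8 skeletal muscle genes, 1 point per library, where the 6 points rise together from E420 (10569 and 14.9) to E423 (23293 and 35.6). Right, the share of summed TPM, in percent, taken by Cyp26a1 among the Cyp26 genes and by Aldh1a3 among the Aldh1a genes, where the 3 mutant points of each gene lie below the 3 control points.

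Set side by side in TPM, Cyp26a1 made up 40.1%, 29.7% and 36.2% of the Cyp26 transcripts in controls and 6.36%, 25.0% and 7.80% in mutants. The mutant shares lay below those of the controls, and the gap between E434 and E433 was the smallest. The summed Cyp26 level overlapped between groups, at 7.90, 12.7 and 7.57 TPM in controls and 11.2, 9.17 and 10.3 TPM in mutants, the higher Cyp26b1 offsetting the lower Cyp26a1 in E423 and E440. The ratio of summed synthesis to summed breakdown transcripts was 2.89, 1.67 and 2.78 in controls and 1.41, 2.25 and 1.53 in mutants, and the groups overlapped through E434 and E433.

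The patterns most like those of the other lower members were found in the same way. For Aldh1a3 they were Igfbp5, an insulin-like growth factor binding protein (root mean square difference 0.0349), Lrrc4b (0.0553) and Fzd8, a Wnt receptor (0.0626), against a spread of 0.506 for Aldh1a3. Igfbp5 ran from 1057 to 1361 CPM in controls and from 560.5 to 945.5 CPM in mutants. For Cyp26a1 they were Mpeg1, a gene of macrophages (0.102), St8sia1, a ganglioside sialyltransferase (0.124), and Gdf10, a TGF-beta family ligand (0.149), against a spread of 0.879. Mpeg1 ran from 19.3 to 22.9 CPM in controls and from 6.30 to 16.9 CPM in mutants. The 6 libraries include 2 close pairs, so fewer than 6 independent points stand behind each likeness.

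The binding proteins had the highest mean TPM of the members over the 6 libraries, although Rarg exceeded Crabp2 in E434 and E433. Crabp1 (ENSMUSG00000032291.8, chromosome 9, 54764748 to 54773110) and Crabp2 (ENSMUSG00000004885.5, chromosome 3, 87948666 to 87953376) both hold retinoic acid in the cytoplasm, the former being linked with its breakdown and the latter with its delivery to the receptors. Crabp1 was at 36.8, 24.7 and 36.4 CPM in E420, E434 and E435 and at 23.4, 46.8 and 24.2 CPM in E423, E433 and E440. Mutants thus held both the highest and the lowest library. The difference was −0.05 ± 0.31 on the log2 scale (SE, 95% interval −0.79 to 0.69, adjusted p by edgeR 0.965). In the 4 libraries low in chondrocyte genes it was −0.62, with both mutants below both controls. Groups did not overlap there for 62.8% of all genes, in either direction. In the remaining pair E433 exceeded E434 (46.8 against 24.7 CPM).

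Crabp2 was at 34.3, 16.3 and 34.9 CPM in controls and at 28.3, 21.1 and 29.4 CPM in mutants. E434 and E433, the libraries rich in chondrocyte genes, were the lowest of their groups. Its log2 fold change was −0.12 ± 0.30 (SE, 95% interval −0.84 to 0.61, adjusted p by edgeR 0.914). These were also the libraries lowest in keratinocyte genes (18.2 and 3209 CPM, against 5443 to 27668 CPM in the others), of which 9 of 10 markers had counts in every library and Flg did not. With the keratinocyte list as a covariate, the log2 fold change of Crabp2 was −0.61 ± 0.08 with an adjusted p of 0.0755 by edgeR, short of the fold limit. It was −0.34 ± 0.15 with the chondrocyte covariate and 0.39 ± 0.42 with the muscle covariate (adjusted p by edgeR 0.38 and 0.90). The value thus depended on the covariate chosen, and the part of skin content in it was not tested.

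The receptors were the steadiest members. Rarg (ENSMUSG00000001288.15, chromosome 15, 102234938 to 102257517), the receptor best known in cartilage and skin, was at 90.5, 98.2 and 81.0 CPM in controls and at 86.8, 77.8 and 85.3 CPM in mutants. Rara (ENSMUSG00000037992.16, chromosome 11, 98927818 to 98974942), found in most tissues, was at 56.6, 63.4 and 52.7 CPM and at 58.3, 52.9 and 54.3 CPM. The groups overlapped for both genes. The log2 fold change was −0.11 ± 0.09 (SE, 95% interval −0.34 to 0.12) for Rarg and −0.06 ± 0.09 (−0.28 to 0.16) for Rara, with adjusted p-values of 0.713 and 0.837 by edgeR. These intervals, the narrowest of the 10, leave room for a fall to 0.792-fold for Rarg and to 0.822-fold for Rara.

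Rarb (ENSMUSG00000017491.9, chromosome 14, 16430839 to 16819156, minus strand), the receptor induced by its own ligand, was at 3.996, 3.44 and 3.96 CPM in controls and at 3.61, 4.18 and 3.32 CPM in mutants. Its groups overlapped, and its log2 fold change was −0.04 ± 0.15 (SE, 95% interval −0.41 to 0.33, adjusted p by edgeR 0.947). Rarb is the only member whose annotated exons share bases with other genes. The overlap takes 34.1% of its exon bases and lies with Top2b, a DNA topoisomerase gene on the opposite strand, and a further 4.31% lies with Gm48162, an antisense transcript. Strand was not used in counting, so the value of Rarb is uncertain in a way that those of the other 9 are not. The sum of the 3 receptors was 78.0, 88.9 and 70.6 TPM in controls and 72.8, 77.0 and 69.0 TPM in mutants, and Rarg held 54.2% to 57.7% of it in every library.

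**Figure D3:**
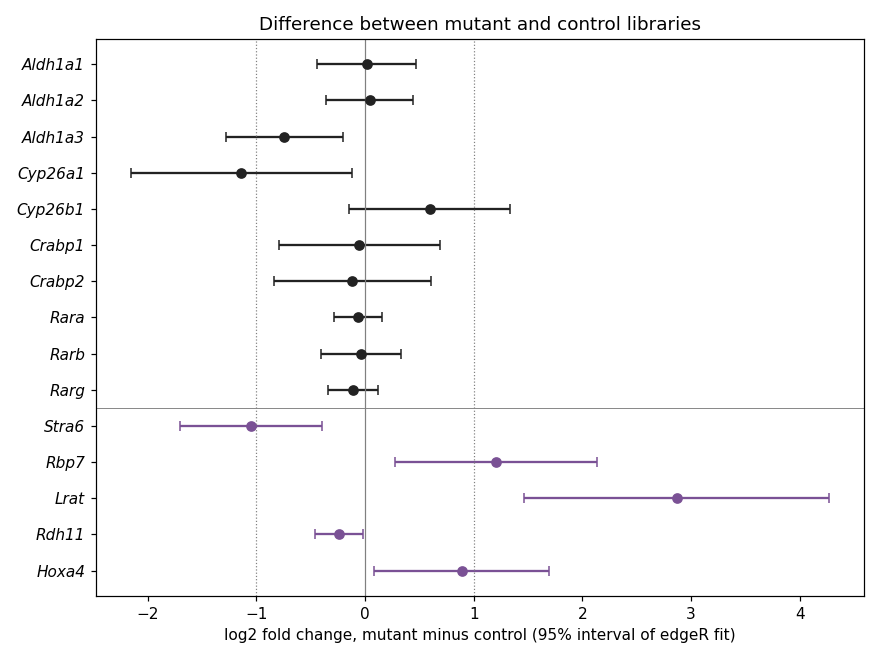
Log2 fold change of mutants against controls (horizontal axis) with the 95% interval of the edgeR fit for the 10 retinoid genes and, beneath the line, for 5 other genes of the pathway with an unadjusted p under 0.05, which were picked by that p. Dotted lines mark the fold limit of 1 either way, and among the 10 members the intervals of Aldh1a3 (−1.28 to −0.20) and Cyp26a1 (−2.16 to −0.12) lie below 0.

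In order of mean TPM over the 6 libraries, the members ran from Crabp1 (65.6) through Crabp2 (46.8), Rarg (42.6), Rara (29.1), Aldh1a3 (7.57), Cyp26b1 (7.55), Aldh1a2 (7.18), Aldh1a1 (4.78) and Rarb (4.32) to Cyp26a1 (2.25). The libraries of Crabp1, Crabp2 and Rarg overlapped from each to the next, and so did those of Aldh1a3, Cyp26b1, Aldh1a2, Aldh1a1 and Rarb. The steps in the order without overlap were from Rarg (lowest 38.5) to Rara (highest 33.6), from Rara (lowest 26.6) to Aldh1a3 (highest 11.6), and from Rarb (lowest 3.86) to Cyp26a1 (highest 3.77). In TPM the rib cage thus held more RNA for the binding proteins, Rara and Rarg than for any of the Aldh1a and Cyp26 members. Other enzymes of the pathway, such as the alcohol and retinol dehydrogenases, are not part of this order.

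**Figure D4:**
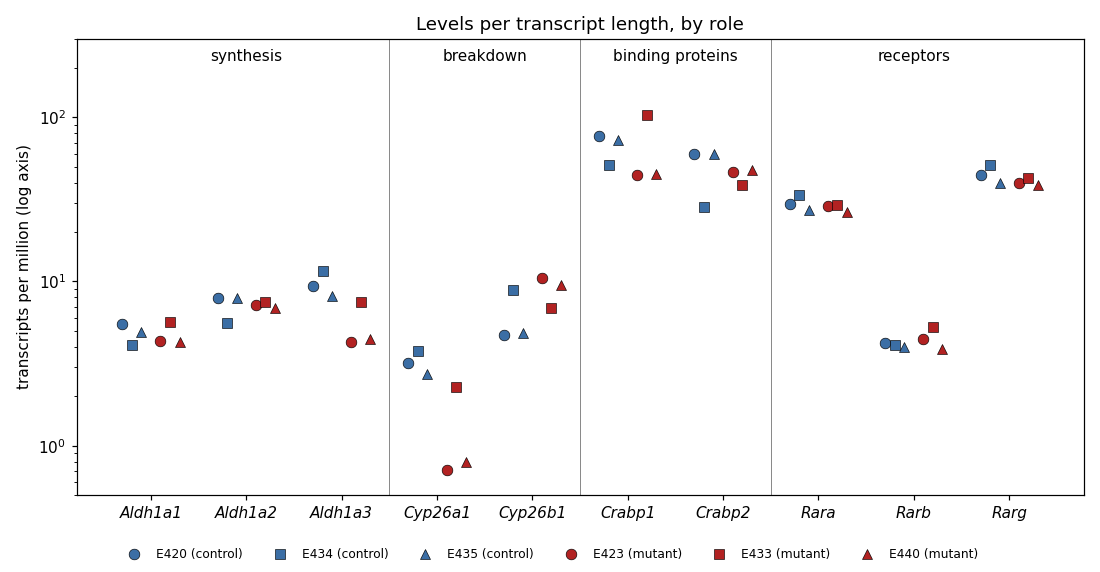
Level in TPM (log axis) of the 10 genes, grouped by role, with 1 point per library and controls to the left of mutants. Binding proteins, Rara and Rarg lie between 26.6 and 103, and the enzymes and Rarb between 0.71 and 11.6.

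The rest of the pathway was followed through 5 lists of 52 further genes, of which 48 were tested. EdgeR called 0 of the 48 and DESeq2 called 3 (Lrat and Rbp7 higher, Stra6 lower), beside 0.0639% and 1.79% of all genes. At an unadjusted p under 0.05, edgeR had 3 of the 48 higher, beside 5.9% of all genes, and 2 lower, beside 4.7%. All mutants lay above all controls for 2 genes, beside 6.81% of all genes, and below them for 2 (Stra6 and Rdh11), beside 8.21%. The median log2 fold change of the 48 was 0.09, beside 0.01 for all genes tested.

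Of the 5 genes with an unadjusted p under 0.05, 3 belonged to retinol transport and storage. Stra6, the cell surface receptor that takes up retinol from its carrier, was at 4.53, 4.30 and 4.45 CPM in controls and at 1.49, 3.04 and 1.89 CPM in mutants. The groups did not overlap, and E433 was again the mutant closest to the controls. Its log2 fold change was −1.05 ± 0.27 (SE), with an adjusted p of 0.361 by edgeR and 0.0186 by DESeq2. Lrat, the acyltransferase that stores retinol as esters, had 4, 2 and 15 counts in controls and 41, 56 and 53 counts in mutants, and its log2 fold change was 2.87 ± 0.58 (adjusted p 0.260 by edgeR and 0.000437 by DESeq2). Lrat set the groups apart with E433 as the highest library, unlike Stra6. The hepatocyte list was also highest in E433, at 773 CPM, but at 65.5 and 63.8 CPM in E423 and E440 and at 57.0 to 88.7 CPM in controls. The part of liver content in the Lrat value was not tested.

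Rbp7, a cellular retinol-binding protein of fat and endothelium, was at 0.840, 1.28 and 1.11 CPM in controls and at 3.30, 1.25 and 2.93 CPM in mutants. E433 lay within the controls, and the log2 fold change was 1.2045 ± 0.39 (adjusted p 0.408 by edgeR and 0.0909 by DESeq2). The adipocyte list moved in the same way, its 7 markers summing to 315 to 321 CPM in controls, 418 CPM in E433 and 976 and 993 CPM in E423 and E440, and its part was not tested. Of the 10 tested genes of this list, 2 were higher and 1 lower at an unadjusted p under 0.05 by edgeR, beside 5.9% and 4.7% of all genes.

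Among the 13 enzymes of retinol and retinaldehyde, edgeR had 1 lower and 0 higher at an unadjusted p under 0.05, beside 4.7% and 5.9% of all genes. Rdh11, a retinaldehyde reductase, was at 25.3 to 29.1 CPM in controls and at 22.1 to 24.1 CPM in mutants, a log2 fold change of −0.24 ± 0.09 with an adjusted p of 0.448 by edgeR. Adh1, an alcohol dehydrogenase that oxidizes retinol and the list's most abundant gene in CPM, was at 55.7, 18.95 and 61.9 CPM in controls and at 127, 37.7 and 126 CPM in mutants. Its groups overlapped, and E434 and E433 were again the lowest of their groups.

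The 6 other receptors and breakdown genes had 0 at an unadjusted p under 0.05 by edgeR, and so did the 6 corepressors and coactivators, beside 10.6% of all genes. Fabp5, a fatty acid-binding protein abundant in epidermis that can also carry retinoic acid, was at 354, 79.9 and 349 CPM in controls and at 577, 213 and 592 CPM in mutants (adjusted p by edgeR 0.673). Its lowest libraries, E434 and E433, were those lowest in keratinocyte genes. Ncor1, a corepressor that sits on unliganded receptors, was at 170 to 201 CPM in controls and 169 to 191 CPM in mutants.

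Of the 13 tested response genes, 1 was higher and 0 lower at an unadjusted p under 0.05 by edgeR, near the 5.9% and 4.7% of all genes. Hoxa4, a homeobox gene with a known retinoic acid response, was at 1.81, 2.71 and 2.29 CPM in controls and at 5.72, 2.41 and 4.49 CPM in mutants, a log2 fold change of 0.89 ± 0.34 with an adjusted p of 0.444. Its groups overlapped through E433. Tgm2, a transglutaminase induced by retinoic acid and the most abundant gene of this list in CPM, was at 52.2, 95.8 and 53.3 CPM in controls and at 144, 70.0 and 141 CPM in mutants (log2 fold change 0.82 ± 0.35, adjusted p by edgeR 0.481). The high and low libraries of Tgm2 were those of Cyp26b1 and of the muscle list. The median log2 fold change of the response genes was 0.13, and 4 of the 52 genes (Rpe65, Hoxb1, Cdx1 and Stra8) had too few counts to test.

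Leaving out libraries or adding a term for cell content moved the members in unlike ways. Aldh1a3 stayed below 0 in all 17 alternatives (−1.002 to −0.47 on the log2 scale) and Cyp26a1 likewise (−1.76 to −0.73), while the sign of Cyp26b1 held in 16 of 17. The direction of the 7 other members changed in 1 to 6 of the 17. In the 4 libraries low in chondrocyte genes, 8 of the 10 members had groups that did not overlap, beside 62.8% of all genes tested there.

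**Figure D5:**
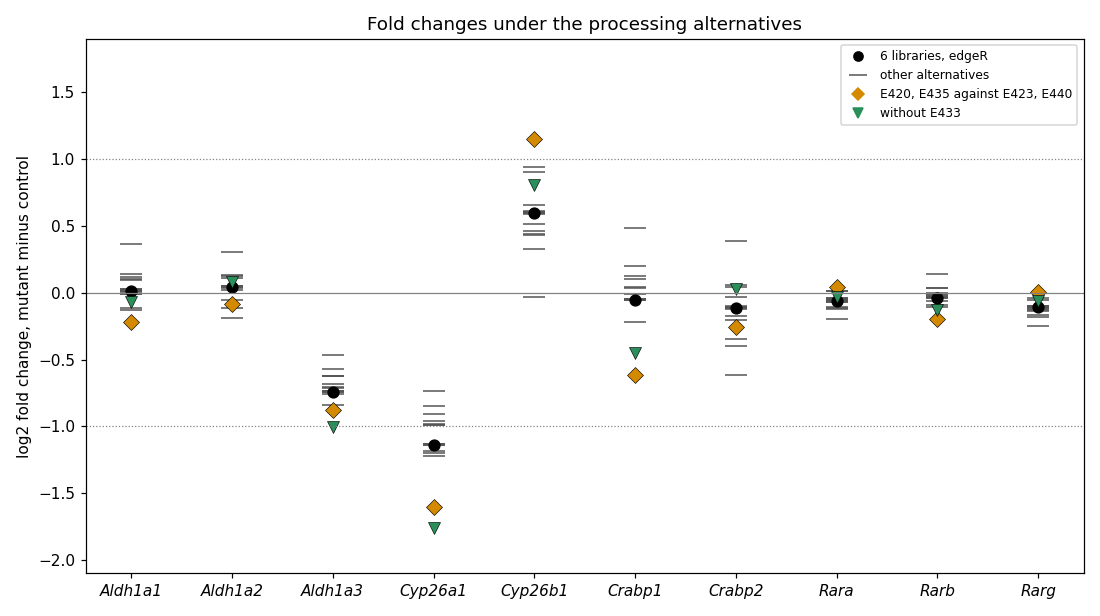
Log2 fold change of mutants against controls (vertical axis) for each member in the fit of 6 libraries (black circles), in 17 alternatives (dashes), and among these in the fit of E420 and E435 against E423 and E440 (diamonds) and the fit without E433 (triangles). Dotted lines mark the fold limit of 1, which Cyp26a1 and Cyp26b1 passed in the fit of 4 libraries (−1.60 and 1.15) and Aldh1a3 and Cyp26a1 in the fit without E433 (−1.002 and −1.76).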

How the data were processed

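RNA-Seq libraries (NEBNext stranded mRNA, paired ends) came from rib cages of 6 embryos, 3 per group, with groups taken from the sample labels. The authors aligned reads to GRCm38 with HISAT2 2.1.0 and deposited raw counts per gene from featureCounts 1.6.0, in which each end was counted on its own, strand was not used, and multi-mapping reads were dropped. From STAR 2.7.6 and RSEM 1.2.31 the authors also provided expected counts, TPM and FPKM per gene (FPKM not used). The tables of the authors' own DESeq2 comparisons (fold changes and p-values) were not used, nor were 12 columns of per-sample values in them. Versions are those of the submitters' processing notes.

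A quasi-likelihood test (edgeR 4.0.16, R 4.3.3) with TMM scaling was run on the 26596 genes with 10 counts or more in all, with Benjamini-Hochberg adjustment over all genes. The limits were an adjusted p of 0.1 and a log2 fold change of 1. The prior count of log2 CPM was 2. Symbols were matched for 55141 of 55487 gene IDs. The labels tie no embryo to a litter. The p-values set the group difference against the spread between these libraries, which include the close pairs E420 with E435 and E423 with E440. Intervals cover the spread between libraries, and counts carry no molecular identifiers.

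Members and lists were chosen with earlier results of these data known. Named were all 10 members, other pathway genes with an unadjusted p under 0.05 or the highest CPM of their list, and the 3 nearest patterns of the 3 members of lowest p. A gene that this rule names is not reported here. Adh7, Top2b and Gm48162 were named after their values were seen. Alternatives were DESeq2's size factors, DESeq2 1.42.0, no filter, filterByExpr, a robust empirical Bayes step, rounded expected counts, each library left out, 4 libraries only, and chondrocyte or keratinocyte genes as a covariate. Summing the close pairs and the muscle covariate were added after the data were seen. The fits were tested on simulated counts.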

Additional observations from a re-analysis of the deposited data

How the results depend on the processing

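No paired analysis was possible because the labels give no litters. Past the limits stood 2 of the 10 members, and 9 of the other 48 pathway genes, with E420 and E435 against E423 and E440 only, and 3 of the 48 by DESeq2. Leaving out a library each in turn gave 0 to 2 members and 0 to 5 of the 48, the highest without E433. The count of members whose groups did not overlap was 8 in the 4 libraries, beside 62.8% of all genes, and 2 to 5 with a library left out (5 without E434, 4 without E433). The share of all genes with a library left out is not given here. Smaller groups separate more readily, so those counts are not read as a result about the members. The other alternatives run kept the counts of members called, other pathway genes called and members without overlap at 0, 0 and 2. Genes called in all numbered 17 with 6 libraries, 477 by DESeq2, 37 without a filter, 35 with the robust step, 10 with RSEM counts, 227 and 61 with the chondrocyte and keratinocyte covariates, 2 with the muscle covariate, 2066 in the 4 libraries, 0 with summed pairs, 1087 without E433, 17 without E434, and 0 without E420, E435, E423 or E440.

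Of 170 log2 fold changes of members, 137 kept direction and call, 29 changed sign and 4 passed the limits. Sign changes were −0.0086 (Aldh1a1) with RSEM counts; 0.045 (Rara), 0.0089 (Rarg), −0.22 (Aldh1a1) and −0.083 (Aldh1a2) in the 4 libraries; −0.0085 (Aldh1a1) and −0.054 (Aldh1a2) with the chondrocyte covariate; 0.016 (Rara), −0.12 (Aldh1a1) and −0.19 (Aldh1a2) with the keratinocyte covariate. With the muscle covariate they were 0.14 (Rarb), −0.034 (Cyp26b1), 0.48 (Crabp1) and 0.39 (Crabp2), and with summed pairs 0.035 (Rarb) and 0.20 (Crabp1). With a library left out, values ran from −0.12 to 0.013 for Rara, −0.13 to 0.036 for Rarb, −0.13 to 0.12 for Aldh1a1, −0.11 to 0.13 for Aldh1a2, −0.45 to 0.12 for Crabp1 and −0.40 to 0.056 for Crabp2. The cause of these changes was not tested. At 38 to 197 counts per library, Cyp26a1 is the member whose depth limits it most.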

Other observations

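RSEM's abundance-weighted transcript length of Cyp26a1 was 1562, 1697 and 1606 bases in controls E420, E434 and E435 and 1791 bases in all 3 mutants. That of Rarb was 1919, 1711 and 1932 bases in controls and 1554, 1621 and 1502 bases in mutants, without overlap between the groups. Both genes have few counts, Rarb shares exon bases with Top2b, and no test was made. The share of all genes whose lengths do not overlap between the groups is not given here. Adh7, an alcohol dehydrogenase, was at 12.9 to 15.4 CPM in controls and at 16.1 to 17.98 CPM in mutants, without overlap, with a log2 fold change of 0.22 ± 0.11 (SE) and an adjusted p of 0.542 by edgeR. The hepatocyte list stood at 773 CPM in E433 and at 57.0 to 88.7 CPM in the other 5 libraries, and the mesothelial list at 46.2 to 224 CPM in controls and 74.7 to 127 CPM in mutants. The fibroblast list ran from 11438 to 15120 CPM over the 6 libraries, the lists of melanocytes and of Schwann cells and neurons from 1.24 to 36.6 and from 54.0 to 95.6 CPM, and that of lung epithelium from 2.76 to 27.8 CPM, with Sftpc, Sftpb and Nkx2-1 at 0 in at least 1 library.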
